A study of Mus musculus with 4 samples.

Results

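The clustered protocadherins of mouse are cell adhesion genes that lie in neighbouring clusters, Pcdha, Pcdhb and Pcdhg, on chromosome 18. They were taken as every row of the deposited expression matrix whose symbol begins with Pcdha, Pcdhb, Pcdhga, Pcdhgb or Pcdhgc and carries a member number, which gave 59 of 20325 rows. Of these, 15 belonged to Pcdha, 22 to Pcdhb and 22 to Pcdhg. RNA came from C3H10T1/2 cells, a multipotent mesenchymal line derived from C3H mouse embryos, grown in serum-supplemented medium at passage 10 to 15. The cells stably expressed FLAG-HA-tagged histone H3.3 that carried the K36M mutation (K36M, n = 2 libraries) or was wild type (WT, n = 2 libraries). The comparison asks how a mesenchymal cell expresses this locus when the mutant histone, known to inhibit methyltransferases of H3 lysine 36, is present.

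Clustered protocadherins are membrane proteins that bind copies of themselves on other cells, and are best known from neurons, where each cell makes its own combination of them and so recognises its own branches. Each member has its own promoter and a large first exon. In the Pcdha and Pcdhg clusters this exon is spliced to constant exons that all members of the cluster share, while the Pcdhb genes have a single exon and no constant part. The promoters of most members carry sites for CTCF, which together with cohesin loops a chosen promoter to distant enhancers, and unused promoters are held silent by DNA methylation and by SMCHD1. The last members of Pcdha and Pcdhg are called C-type, and their promoters are used more uniformly than those of the alternate members.

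The matrix gave RSEM expected counts, meaning that reads which fit several genes were shared out among them as fractions. Library totals were 56041798 and 34022137 expected counts in K36M replicates 1 and 2, against 25322433 and 23343297 in WT replicates 1 and 2, so the K36M group was 1.85 times as deep. Levels are given as CPM, in which counts were divided by library size after TMM adjustment. Within groups the libraries correlated at r = 0.9967 (K36M) and 0.9954 (WT) over log2 CPM of the genes tested. The matrix cannot check the labels, as it does not distinguish the mutant histone from the wild type. The labels do not describe the lines as clones or pools and do not tie replicates to separate cultures. The p-values therefore rest on library-to-library spread alone, possibly of technical origin.

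Reads that fall in shared or near-identical sequence were split between members by the authors' counting. Of the expected counts above 0, 91.7% in Pcdha, 96.4% in Pcdhb and 100% in Pcdhg were not whole numbers (further than 0.004 from one), against 63.3% over the whole matrix. Single members are therefore uncertain, above all those with few counts, and the sum over a cluster is the value that does not depend on how its reads were split. Sums over part of a cluster, and shares within it, do depend on that split. Sums are given as descriptions, without a test.

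The 3 clusters differed between the groups in different ways. Pcdha was nearly silent in WT cells and present at a low level in K36M cells. Pcdhb and Pcdhg were expressed in both and lower in K36M cells, Pcdhb by more than Pcdhg. Summed over 15 rows, Pcdha stood at 2.59 and 2.45 CPM in the K36M libraries, against 0.0807 and 0.0517 CPM in the WT libraries. Summed over 22 rows, Pcdhb stood at 63.0 and 62.5 CPM in K36M, against 156.8 and 170.6 CPM in WT, 2.61-fold lower. Summed over 22 rows, Pcdhg stood at 697.7 and 668.1 CPM in K36M, against 949.8 and 958.3 CPM in WT, 1.40-fold lower. The groups did not overlap in any of these sums. With 2 libraries per group this is a weak criterion, and the share of all genes that meet it is not given here. Pcdhgb2, with a log2 fold change of -0.02, meets it too. Lack of overlap by itself therefore sets no sum or gene apart, here or below. As the RNA is from bulk cultures, fewer expressing cells and less RNA per cell cannot be told apart.

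**Figure D1:**
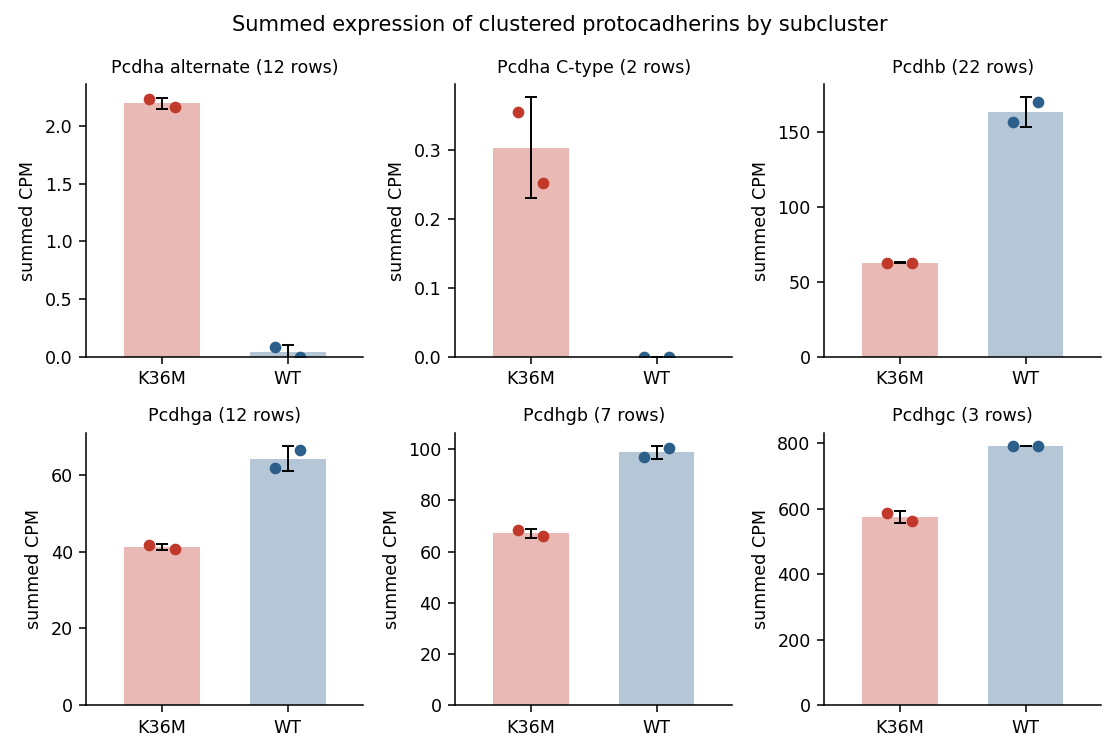
Summed CPM of each subcluster (vertical axes, linear and starting at 0, each panel on its own scale) in K36M and WT libraries. Bars are means over 2 libraries, error bars SD and points single libraries. Both Pcdha sums are higher in K36M and the other 4 sums are lower, with no overlap between groups. Apart from Pcdhb, the sums cover part of a cluster and depend on how shared reads were split.

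Members were tested with edgeR's quasi-likelihood test over the whole matrix, with Benjamini-Hochberg adjustment over the 13162 genes that passed a filter on low counts, and called at an adjusted p under 0.05. Of the 59 members, 43 passed that filter, namely 1 of 15 Pcdha, 20 of 22 Pcdhb and 22 of 22 Pcdhg rows. Of these 43, 28 (65.1%) were called lower and 7 (16.3%) higher in K36M, while over all genes tested 37.1% were called lower and 38.5% higher. At least 2-fold, 13 members (30.2%) were lower and 4 (9.30%) higher, against 8.69% and 12.7% of all genes tested. These counts include Pcdha8 and Pcdhb2 (higher) and Pcdhga10 (lower). Each of them passed the filter through a single group, which fixed the direction of its call. The median log2 fold change of the 43 was -0.64, and that of all genes tested was 0.0035. With 75.6% of all genes called in either direction, a call by itself sets no member apart.

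Pcdha carried 147.0 and 85.19 expected counts in K36M replicates 1 and 2, and 2.0 and 1.19 in WT replicates 1 and 2. Over both libraries of a group this was 232 rounded counts in K36M against 3 in WT, a ratio of 40.4 after scaling for depth, with a 95% interval of 13.7 to 197 (Clopper-Pearson, counting error only). Those WT counts were single or fractional reads on Pcdha3, Pcdha9 and Pcdha4-g, the last a row whose symbol joins Pcdha4 to the gamma cluster. Pcdha4-g held all 1.19 counts of WT replicate 2, and how its reads were split from Pcdhg is not known. The 12 alternate members summed to 2.23 and 2.16 CPM in K36M, against 0.0807 and 0 CPM in WT. The C-type members Pcdhac1 and Pcdhac2 together summed to 0.355 and 0.252 CPM in K36M and had 0 counts in WT, at least 5.05-fold higher in K36M, taking 3 counts over the group as the floor.

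Expected counts in K36M were spread over most rows of the cluster. Reads in the shared exons were split between members, so this does not show how many members were in use. Counts above 0 appeared in 14 of the 15 rows in K36M and in 3 in WT, and Pcdha7 had 0 counts in all 4 libraries. Pcdha8, an alternate member, was the highest, with 28.68 and 25.16 counts in K36M (0.505 and 0.724 CPM) against 0 in both WT libraries. It was the only Pcdha row to pass the low-count filter, which it did through the K36M libraries alone, so that its call had to be a rise (edgeR adjusted p = 1.29e-05, at least 9.40-fold higher). Pcdha3 had 13.94 and 16.26 counts in K36M, against 1 and 0 in WT, a ratio of 15.7 with a counting interval of 2.60 to 639. The K36M libraries differed in how counts fell on members. Pcdha12 had 23.07 counts in K36M replicate 1 and 0 in replicate 2, and Pcdhac1 had 6.85 and 0, whereas Pcdhac2 had 13.3 and 8.75. With no low-count filter, 7 of 14 Pcdha rows tested were called higher and 0 lower. Over all genes, 5533 were called higher and 5050 lower in that setting. As the WT counts of these Pcdha rows were at or near 0, none of them could have been called lower.

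**Figure D2:**
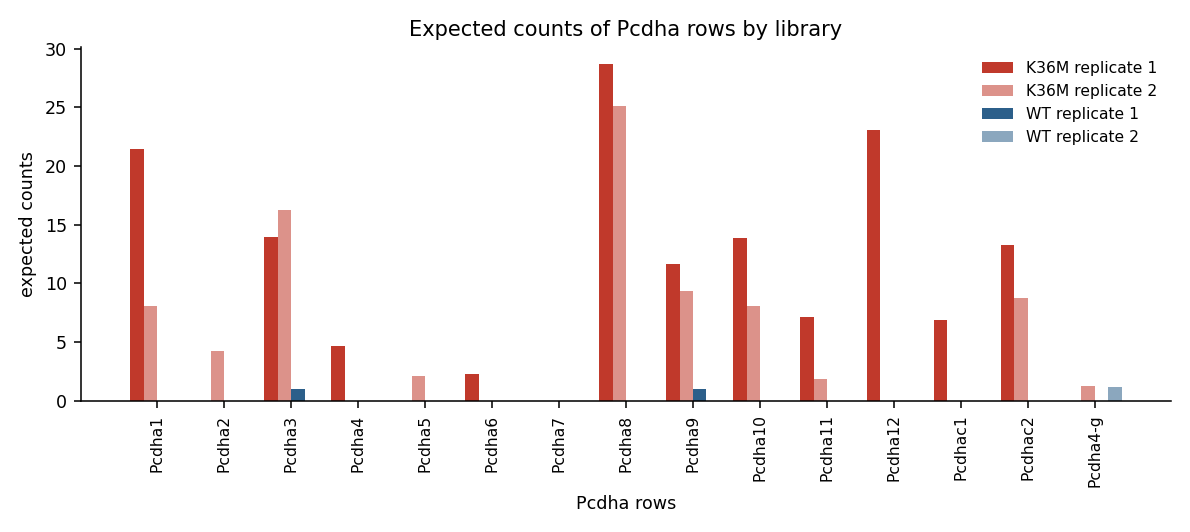
Expected counts (vertical axis, linear) of the 15 Pcdha rows in each library, K36M replicates in red and WT replicates in blue. Counts in K36M are spread over 14 rows with Pcdha8 the highest, and the WT libraries hold 2.0 and 1.19 counts in all.

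In Pcdhb the direction of change followed the position of the gene. Of the 9 genes at the 5′ end, Pcdhb1 to Pcdhb9, 7 were tested, of which 6 rose and none fell. Among the 6 is Pcdhb2, which could only be called higher. Of the 13 genes that follow, Pcdhb10 to Pcdhb22, 11 fell and none rose. Over all genes tested 38.5% were called higher and 37.1% lower. The boundary was chosen after the values were seen, so that these counts are a description. All 7 tested genes before the boundary had a log2 fold change above 0 and all 13 after it had one below 0. The boundary was placed where the sign turns, so this split is no test of it. These signs held in all alternatives tried wherever a gene was tested. The alternatives refit the same libraries and do not test the boundary. Summed, Pcdhb1 to Pcdhb9 stood at 17.2 and 17.5 CPM in K36M, against 8.97 and 10.95 CPM in WT. Pcdhb10 to Pcdhb22 stood at 45.8 and 45.03 CPM in K36M, against 147.8 and 159.7 CPM in WT. The 5′ genes held 27.4% and 27.9% of Pcdhb counts in K36M, and 5.72% and 6.42% in WT.

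**Figure D3:**
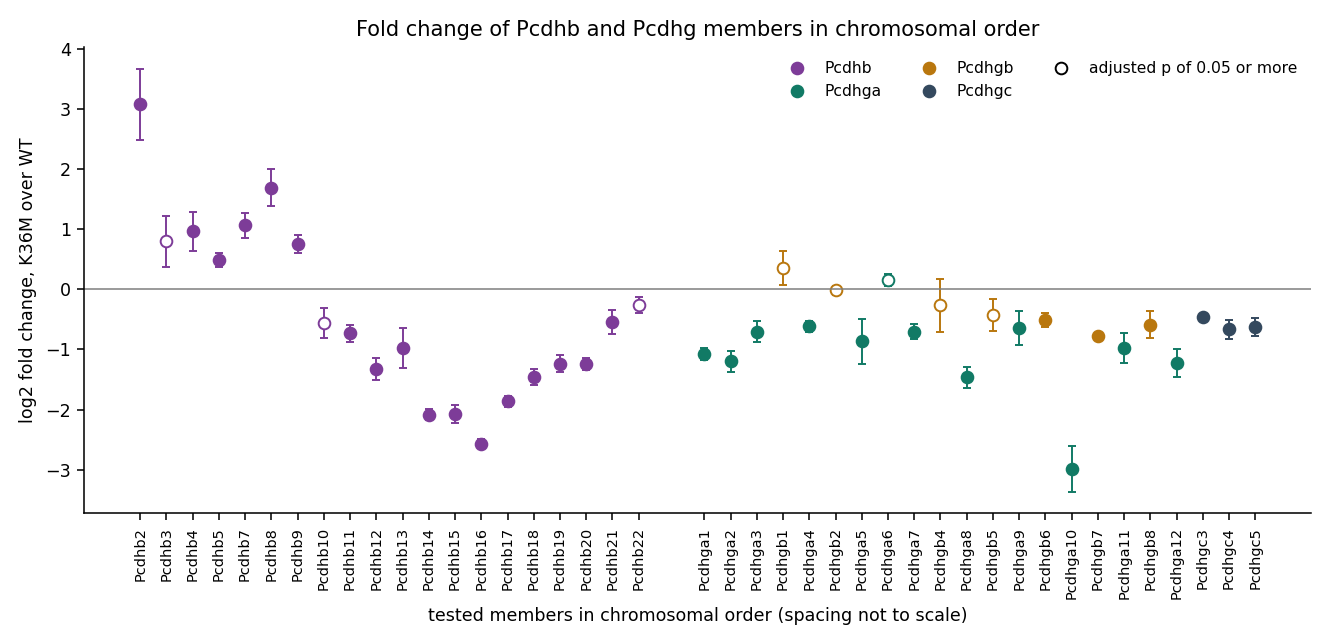
Fitted log2 fold change, K36M over WT (vertical axis, error bars 1 SE), of the 42 tested Pcdhb and Pcdhg members in the order of their genes on the chromosome. Open circles did not pass the test. Pcdhb2 to Pcdhb9 lie above 0, Pcdhb10 to Pcdhb22 lie below 0 with the lowest value at Pcdhb16, and most Pcdhg members lie below 0.

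Pcdhb2 had the highest ratio among the 5′ genes, on very few reads in WT. It had 0.535 and 0.607 CPM in K36M against 0.0403 and 0.0891 CPM in WT, where these were 1 and 2.05 counts (ratio 8.88, counting interval 2.87 to 44.5, edgeR adjusted p = 1.26e-04). As it passed the low-count filter through the K36M libraries alone, its call could only be a rise. Pcdhb8 had 1.48 and 1.35 CPM in K36M against 0.333 and 0.558 CPM in WT, 3.23-fold higher. Pcdhb5 had 6.55 and 6.05 CPM in K36M, against 4.25 and 4.83 CPM in WT (log2 fold change 0.49 ± 0.12 (SE), adjusted p = 0.00129). In these 3 genes both K36M libraries lay above both WT libraries. Pcdhb7 and Pcdhb9 rose 2.09-fold and 1.69-fold. Pcdhb4 rose 1.96-fold (adjusted p = 0.0118), but did not pass the test without WT replicate 1 (log2 fold change 0.50, adjusted p = 0.222). Pcdhb3 did not pass (log2 fold change 0.80, adjusted p = 0.0948), and its groups overlapped. It did pass without K36M replicate 1 (adjusted p = 0.0341) and without WT replicate 2 (adjusted p = 0.0131, log2 fold change 1.70). Pcdhb6 was too low to be tested, with 9.93 and 4.39 counts in K36M against 0 and 2.39 in WT, and Pcdhb1 had 0 counts in all libraries.

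The deepest falls in Pcdhb were those of Pcdhb14 to Pcdhb17, which lie next to each other. Pcdhb16, the most abundant Pcdhb gene in WT cells, stood at 8.82 and 10.0 CPM in K36M, against 52.0 and 58.8 CPM in WT, 5.94-fold lower (log2 fold change -2.57 ± 0.07 (SE), edgeR adjusted p = 3.66e-16). Its share of Pcdhb counts was 14.0% and 16.1% in K36M, against 33.2% and 34.5% in WT. Pcdhb14 stood at 5.95 and 5.32 CPM in K36M, against 23.0 and 25.5 CPM in WT (log2 fold change -2.09 ± 0.09 (SE), adjusted p = 2.34e-13). Pcdhb17 stood at 6.68 and 6.17 CPM in K36M, against 21.9 and 25.3 CPM in WT (log2 fold change -1.87 ± 0.09 (SE), adjusted p = 1.62e-12). In each of these genes every K36M library lay far below every WT library. Pcdhb15, next to Pcdhb16, fell by 2.08 on the log2 scale.

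On either side the falls were smaller. From Pcdhb11 to Pcdhb13 the log2 fold changes were -0.73, -1.32 and -0.97, and from Pcdhb18 to Pcdhb21 they were -1.46, -1.24, -1.25 and -0.54. The outermost genes of the stretch, Pcdhb10 (-0.56, adjusted p = 0.0506) and Pcdhb22 (-0.26, adjusted p = 0.0688), did not pass the test, and the groups of Pcdhb22 overlapped. With the authors' factors both passed it (adjusted p = 0.0252 and 0.0167). Pcdhb22 passed it without K36M replicate 2 (adjusted p = 0.00422, log2 fold change -0.40) and without WT replicate 2 (adjusted p = 0.0382). Pcdhb13 (adjusted p = 0.014) did not pass without K36M replicate 2 (log2 fold change -0.70, adjusted p = 0.108) or WT replicate 1 (-0.75, adjusted p = 0.141). Pcdhb21 (adjusted p = 0.0189) did not pass without K36M replicate 1 (-0.60, adjusted p = 0.0558), K36M replicate 2 (-0.50, adjusted p = 0.0632) or WT replicate 2 (-0.47, adjusted p = 0.121), while its log2 fold change stayed near that of all libraries.

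The order of levels within Pcdhb also differed between the groups. Per kb of RefSeq gene length, WT cells had Pcdhb16 highest, at 10.5 ± 0.909 CPM per kb, followed by Pcdhb17 at 7.21 ± 0.735 and Pcdhb14 at 7.05 ± 0.516 CPM per kb (SD, n = 2). Pcdhb17 and Pcdhb14 did not differ beyond their spread. In K36M cells the 4 highest genes lay together, with Pcdhb17 at 1.96 ± 0.110, Pcdhb22 at 1.81 ± 0.278, Pcdhb16 at 1.79 ± 0.164 and Pcdhb5 at 1.78 ± 0.101 CPM per kb (SD, n = 2), and their order lay within the spread. Pcdhb5 ranked 4 of 22 in K36M and 8 of 22 in WT, and Pcdhb9 ranked 6 in K36M and 12 in WT. The gene lengths are of build GRCm38, since those of the authors' annotation are not given in the sources used here.

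**Figure D4:**
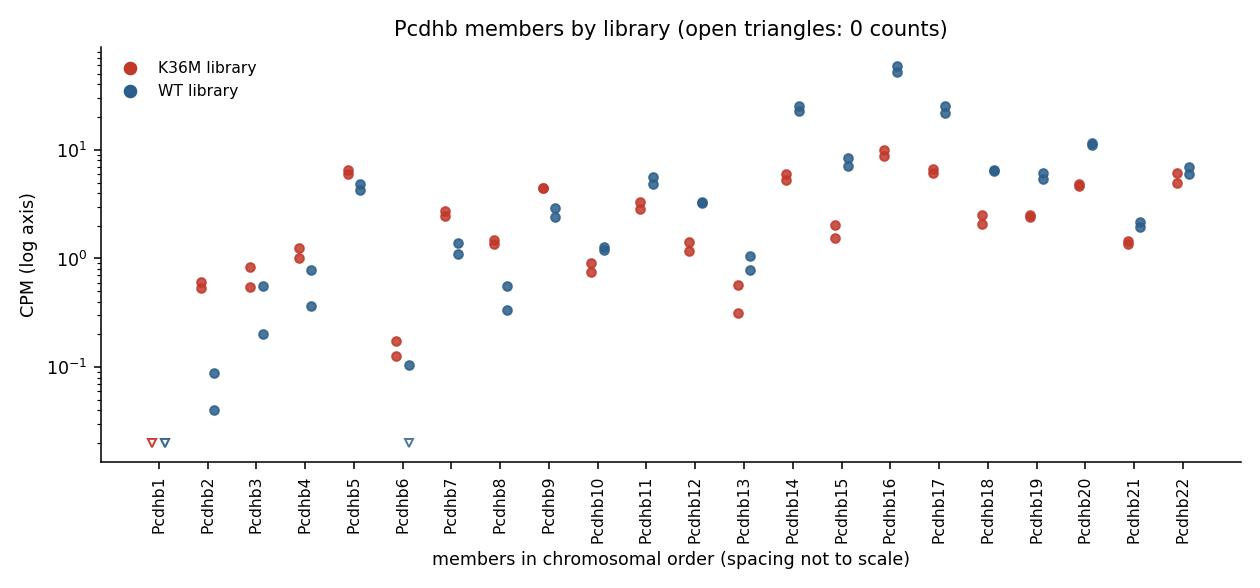
CPM (vertical axis, log scale) of the 22 Pcdhb genes in chromosomal order in each library, K36M in red to the left and WT in blue to the right of each position. Open triangles at the bottom mark 0 counts. WT libraries peak at Pcdhb16 with 52.0 and 58.8 CPM, whereas the K36M libraries there are at 8.82 and 10.0 CPM, near those of Pcdhb5.

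Pcdhg was carried by Pcdhgc3, a C-type member that is also made outside the nervous system. It held 83.5% and 83.2% of Pcdhg counts in K36M, against 82.4% and 81.8% in WT. Pcdhgc3 stood at 583 and 556 CPM in K36M, against 783 and 784 CPM in WT, 1.38-fold lower (log2 fold change -0.46 ± 0.04 (SE), edgeR adjusted p = 1.42e-09). Both K36M libraries lay below both WT libraries. The other C-type members, Pcdhgc4 and Pcdhgc5, fell too. Pcdhgc4 had 2.35 and 2.91 CPM in K36M, against 4.36 and 3.78 CPM in WT (log2 fold change -0.66 ± 0.16 (SE), adjusted p = 9.40e-04). Pcdhgc5 had 2.39 and 2.56 CPM in K36M, against 3.98 and 3.59 CPM in WT (log2 fold change -0.63 ± 0.15 (SE), adjusted p = 0.00104). Per kb of GENCODE transcript, Pcdhgc3 was at 121.5 ± 4.05 CPM per kb in K36M and 167.1 ± 0.196 in WT (SD, n = 2), far above the next member, Pcdhgb7, at 8.59 ± 0.285 and 14.7 ± 0.197.

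Without Pcdhgc3 the remaining 21 Pcdhg rows summed to 115.0 and 112.2 CPM in K36M, against 167.3 and 174.4 CPM in WT, a log2 ratio of -0.59. The A-type genes summed to 41.9 and 40.8 CPM in K36M, against 61.9 and 66.6 CPM in WT. The B-type genes, which are interleaved with them on the chromosome, summed to 68.4 and 65.9 CPM in K36M, against 97.0 and 100.5 CPM in WT. These A-type and B-type sums were 1.55-fold and 1.47-fold lower in K36M. They depend on how reads of the shared exons were split, as do the sum without Pcdhgc3 and the share of Pcdhgc3.

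Of the 12 A-type genes 11 fell and none rose, 5 of them at least 2-fold, with a median log2 fold change of -0.92. Over all genes tested 37.1% were called lower, and 8.69% at least 2-fold lower. Pcdhga10 had the lowest log2 fold change, with 0.146 and 0.118 CPM in K36M against 1.06 and 1.08 CPM in WT, 7.95-fold lower (log2 fold change -2.99 ± 0.38 (SE), edgeR adjusted p = 1.21e-06). It is a low member, with 8.31 and 4.11 counts in K36M, and it passed the low-count filter through the WT libraries alone, so that its call could only be a fall. Pcdhga8 had 1.53 and 1.196 CPM in K36M, against 3.56 and 4.19 CPM in WT, 2.76-fold lower (log2 fold change -1.46 ± 0.18 (SE), adjusted p = 6.23e-07). Pcdhga12 had 1.02 and 0.956 CPM in K36M, against 1.83 and 2.87 CPM in WT, 2.34-fold lower (log2 fold change -1.23 ± 0.24 (SE), adjusted p = 1.26e-04). In these 3 genes the groups did not overlap.

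The most abundant A-type genes did not change alike. Pcdhga1, the first gene of the cluster, had 5.09 and 5.27 CPM in K36M, against 10.5 and 11.3 CPM in WT (log2 fold change -1.08 ± 0.10 (SE), adjusted p = 1.53e-08). Pcdhga4 had 8.28 and 9.48 CPM in K36M, against 13.5 and 13.6 CPM in WT (log2 fold change -0.62 ± 0.09 (SE), adjusted p = 9.07e-06). Pcdhga6 had 14.7 and 12.8 CPM in K36M, against 11.5 and 13.4 CPM in WT. Its groups overlapped and it did not pass the test (log2 fold change 0.15, adjusted p = 0.149), though it was called higher without K36M replicate 2 (adjusted p = 0.0216, log2 fold change 0.24) and without WT replicate 2 (adjusted p = 0.0472, log2 fold change 0.25). The calls of Pcdhga5 (adjusted p = 0.0424) and Pcdhga9 (0.0476) were borderline, with overlapping groups in Pcdhga5, and were lost without WT replicate 2, with log2 fold changes of -0.02 and -0.18 (adjusted p = 0.962 and 0.662), and without K36M replicate 2 (0.115 and 0.135). Pcdhga3 lost its call without WT replicate 1 (log2 fold change -0.38, adjusted p = 0.121).

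Of the 7 B-type genes 3 fell, 4 did not pass and none rose, with a median of -0.43. The shares over all genes tested were 37.1% lower and 38.5% higher. Pcdhgb7, the second most abundant Pcdhg member, stood at 41.4 and 39.5 CPM in K36M, against 68.4 and 69.8 CPM in WT, 1.70-fold lower (log2 fold change -0.77 ± 0.05 (SE), edgeR adjusted p = 4.61e-11). Pcdhgb6 had 4.82 and 4.44 CPM in K36M, against 6.22 and 7.06 CPM in WT (log2 fold change -0.50 ± 0.12 (SE), adjusted p = 7.53e-04). Pcdhgb2, the next most abundant after Pcdhgb7, differed little, with 18.3 and 18.2 CPM in K36M against 18.4 and 18.5 CPM in WT (log2 fold change -0.02 ± 0.07 (SE), adjusted p = 0.847), and its sign turned with the scaling. Pcdhgb8, annotated by RefSeq as a transcribed pseudogene, had 1.38 and 1.14 CPM in K36M, against 1.58 and 2.32 CPM in WT (adjusted p = 0.0256). This call was lost without K36M replicate 2 (0.0867) and without WT replicate 2 (log2 fold change -0.31, adjusted p = 0.359). Pcdhgb1, Pcdhgb4 and Pcdhgb5 had log2 fold changes of 0.36, -0.27 and -0.43 and did not pass the test. Pcdhgb1 passed it without WT replicate 2 (log2 fold change 0.99, adjusted p = 0.0143) and lay below 0 without WT replicate 1.

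**Figure D5:**
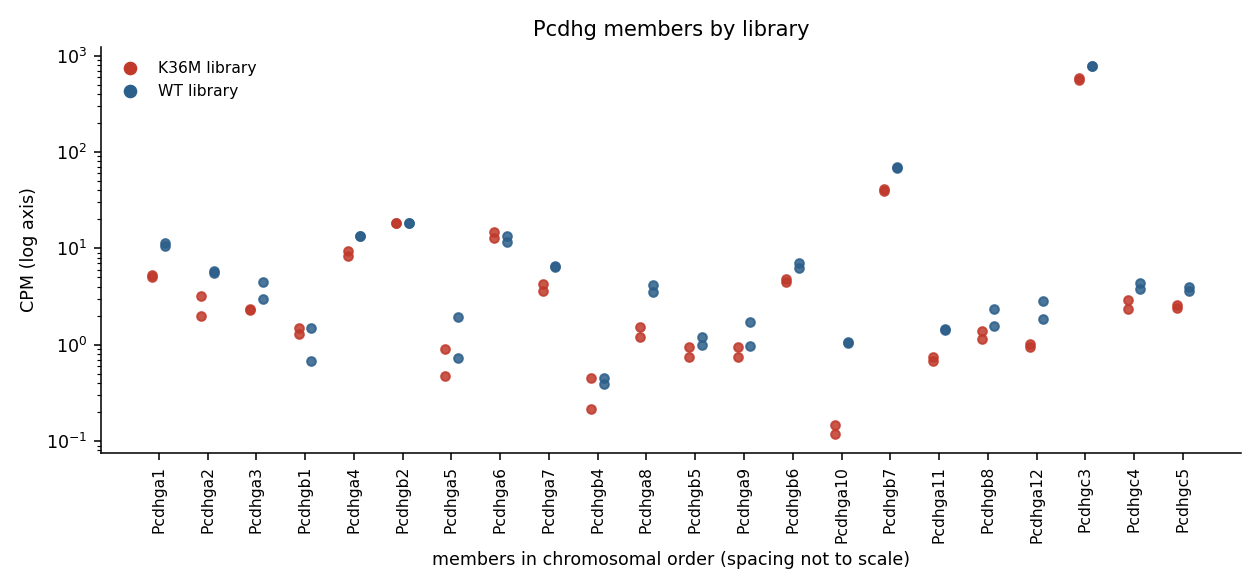
CPM (vertical axis, log scale) of the 22 Pcdhg genes in chromosomal order in each library, K36M in red to the left and WT in blue to the right of each position. Pcdhgc3 stands above all others, at 583 and 556 CPM in K36M and 783 and 784 CPM in WT, and the groups come together at Pcdhgb2 and Pcdhga6.

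Among 24 genes that flank the clusters or lie between them on chromosome 18, 21 were tested, of which 12 rose and 3 fell, with a median log2 fold change of 0.36. Over all genes tested 38.5% were called higher and 37.1% lower. Scaled by the authors' own factors, 12 rose and 7 fell, and over all genes 4360 rose and 5709 fell. Zmat2, the nearest listed gene before Pcdha1, had a log2 fold change of 0.25 (edgeR adjusted p = 5.02e-05). Diap1, the formin gene that follows Pcdhgc5, had 85.4 and 82.5 CPM in K36M, against 49.7 and 42.9 CPM in WT (log2 fold change 0.86, adjusted p = 1.48e-10). Hdac3, which encodes a histone deacetylase and comes next, had a log2 fold change of 0.38 (adjusted p = 2.13e-07). Taf7, a single-exon gene of a general transcription factor subunit that lies between Pcdhb22 and Pcdhga1, had 7.15 and 8.81 CPM in K36M, against 9.80 and 9.60 CPM in WT (log2 fold change -0.30, adjusted p = 0.017). Its call was lost without K36M replicate 1 (log2 fold change -0.14, adjusted p = 0.312) and without WT replicate 1 (0.0532). Slc25a2, beside Taf7, had 5 and 1 counts in K36M against 0 and 2 in WT. The listed genes called with at least a 2-fold change were Arap3, Wdr55 and Pcdh1. Arap3, a GTPase-activating protein gene, had 3.24 and 3.25 CPM in K36M against 0.161 and 0.0869 CPM in WT, with only 4 and 2 counts in WT. It passed the low-count filter through the K36M libraries alone, so that its call could only be a rise. Wdr55 had 26.9 and 26.4 CPM in K36M against 12.8 and 13.3 CPM in WT, 2.05-fold higher. Pcdh1, a protocadherin gene outside the clusters, had 8.01 and 7.35 CPM in K36M against 46.7 and 48.5 CPM in WT, 6.15-fold lower.

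Genes of the loop machinery differed by small amounts. Ctcf, whose product binds the promoters and enhancers of the clusters, had 106.7 and 106.3 CPM in K36M, against 110.7 and 110.5 CPM in WT, and did not pass the test (log2 fold change -0.05, edgeR adjusted p = 0.25). It did with the authors' factors (log2 fold change -0.14, adjusted p = 0.00594). Of 12 genes for CTCF, cohesin, its loaders and release factors and ZFP143, 5 rose and 3 fell, where 75.6% of all genes were called. With so few genes the 2 shares cannot be told apart. All 12 lay within -0.42 and 0.33 on the log2 scale. With the authors' factors 6 fell and 5 rose, while over all genes 5709 fell and 4360 rose.

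Of 20 tested genes that silence or demethylate promoters 8 rose and 8 fell, close to the 38.5% higher and 37.1% lower over all genes. Tet1, which encodes an enzyme that oxidises methylated cytosine, had 6.12 and 6.13 CPM in K36M, against 27.8 and 28.0 CPM in WT, 4.56-fold lower (edgeR adjusted p = 1.59e-14). Hells, a chromatin remodeller gene needed for DNA methylation, had 84.9 and 91.9 CPM in K36M, against 42.9 and 37.8 CPM in WT, 2.19-fold higher (adjusted p = 3.59e-12). Smchd1 had 132.8 and 138.3 CPM in K36M, against 115.1 and 115.2 CPM in WT (log2 fold change 0.23, adjusted p = 6.63e-05). Dnmt3b, a de novo DNA methyltransferase gene, was low, with 4.44 and 4.87 CPM in K36M against 5.67 and 6.43 CPM in WT. Its fall (log2 fold change -0.39, adjusted p = 0.00669) was not past the threshold without K36M replicate 1 (0.0546) or WT replicate 2 (0.0887). Rest, a repressor of neuronal genes, had 35.8 and 36.9 CPM in K36M against 34.3 and 34.4 CPM in WT. Setdb1, an H3K9 methyltransferase gene, had 62.7 and 67.6 CPM in K36M against 62.6 and 61.9 CPM in WT. Rest and Setdb1 had log2 fold changes of 0.08 and 0.06 that did not pass the test (adjusted p = 0.17 and 0.265) and turned negative with the authors' factors. Rest passed it, higher, with upper quartile scaling (adjusted p = 0.0424) and total counts (0.0318). Setdb1 passed it, higher, without K36M replicate 1 (log2 fold change 0.12, adjusted p = 0.0225).

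Of 20 genes for proteins that bind or cleave the intracellular part of protocadherins, 6 rose and 9 fell, near the 75.6% called over all genes. With the authors' factors 4 rose and 10 fell, and over all genes 4360 rose and 5709 fell. The genes called with at least a 2-fold change were Ret, Ptk2b and Aph1b. Ret, a receptor tyrosine kinase gene, had 53.5 and 51.8 CPM in K36M, against 3.07 and 3.21 CPM in WT, 16.8-fold higher. Ptk2b, which encodes the kinase PYK2, had 14.9 and 15.3 CPM in K36M, against 1.82 and 2.48 CPM in WT, 7.04-fold higher. Aph1b, a subunit gene of the gamma-secretase protease, had 13.1 and 14.4 CPM in K36M, against 46.7 and 48.5 CPM in WT, 3.48-fold lower. The groups of all 3 were far apart.

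The cells of both groups expressed mesenchymal genes, with Col1a1 at 10840 and 9548 CPM in K36M and 7867 and 7630 CPM in WT. All 9 mesenchymal markers were tested, 4 rose and 4 fell, where 75.6% of all genes were called, and they summed to 22940 and 21280 CPM in K36M against 25820 and 25420 CPM in WT. Single markers differed by more than the sum. Thy1, a surface glycoprotein gene, had 35.7 and 35.3 CPM in K36M against 3.52 and 2.82 CPM in WT, 11.2-fold higher (edgeR adjusted p = 1.63e-16). Twist2, a transcription factor gene, had 30.9 and 30.3 CPM in K36M against 11.3 and 13.1 CPM in WT, 2.51-fold higher (adjusted p = 1.07e-11). Of 13 markers of neurons and glia 6 were tested, 4 of them higher (Dcx, Stmn2, Syp and Tubb3) and 2 lower (Mtap2 and Gfap). For these and the markers that follow, the shares over all genes tested were 38.5% higher and 37.1% lower. Dcx, with 1.04 and 0 counts in WT, passed the low-count filter through the K36M libraries alone and could only be called higher. Their summed level was 69.2 and 70.4 CPM in K36M, against 181 and 183 CPM in WT, mostly Mtap2, a microtubule-associated protein gene. Olig2 was at 0 in all 4 libraries, and Sox2 and Sox10 at 0 in K36M. Of 4 epithelial markers Cdh1 and Krt8 rose, with a summed level of 23.5 and 25.0 CPM in K36M against 6.01 and 5.74 CPM in WT, and Epcam was at 0 throughout. The same filter limit holds for Krt8, with 3 and 4 counts in WT. The endothelial gene Cdh5 rose to 2.25 and 1.87 CPM in K36M, against 0.847 and 0.434 CPM in WT, and 3 endothelial markers summed to 2.38 and 2.13 CPM in K36M against 0.888 and 0.565 CPM in WT. Of 3 blood markers, which summed to 2.43 and 2.03 CPM in K36M against 1.30 and 1.63 CPM in WT, only Cd68 was tested and it did not pass. The part of these markers in the protocadherin differences was not tested.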

How the data were processed

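Per the file headers, the deposited matrix holds expected counts from RSEM, which the authors used for EBSeq. Per the submitters' processing notes, Bowtie 1.0.0 and RSEM 1.2.12 were used on mouse build mm9; annotation and strand setting are not given in the sources used here. A deposited table of selected genes gives log2 values and a linear fold ratio by the authors, and served only to recover the authors' library factors (0.553 and 0.915 for K36M, 1.35 and 1.46 for WT; largest log2 difference 5e-09). It lists no clustered protocadherin.

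Expected counts were rounded for testing. The test used edgeR 4.0.16 (R 4.3.3): filterByExpr (10 counts at the median library size in at least 2 libraries), TMM, and quasi-likelihood F tests over 13162 genes comparing K36M with WT, with 2 residual and 15.7 prior degrees of freedom. SE is the log2 fold change over the square root of F. The common coefficient of variation was 3.33%. The fit was also run on simulated counts, in which few genes changed and all shared the common dispersion. In the data 75.6% of genes tested were called, so that run does not measure the error rate here. A floor of 3 counts equals 0.0528 to 0.0863 CPM in single K36M libraries and 0.121 to 0.130 in WT libraries, and 0.0328 and 0.0628 CPM over both K36M and both WT libraries. Intervals and floors cover counting error only.

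Gene order, older symbols and Pcdhb lengths came from RefSeq (GRCm38.p6, 58 of 59 members matched), and other transcript lengths from GENCODE M21. Coordinates are not given, as the builds differ. Members and lists were chosen with earlier results of these data known. Members given in full were, in each subcluster, up to 3 tested members with the highest mean CPM, up to 3 called with the largest change, and all C-type members; other member values were added after they were seen. Of the other lists, genes called with at least a 2-fold change and 5 regulators are named, as are some cell type markers, and flanking genes next to the clusters were added after their values were seen.

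Alternatives were other scalings, filters, thinning to the smallest library, a replicate block, DESeq2 1.42.0, limma-voom (limma 3.58.1) and leaving out each library. With a library left out, filterByExpr asked for 1 library instead of 2.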

Additional observations from a re-analysis of the deposited data

How the results depend on the processing

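Of 43 tested members, 29 kept their direction and their side of the threshold under all of the 14 alternatives that tested them. Members called higher numbered 7 (over all genes 5070), but 13 with no low-count filter (5533) and 1 at a mean of at least 5 CPM (3959). Members called lower numbered 28 (over all genes 4879), but 10 at a mean of at least 5 CPM (3959), where 14 members were tested. Fewer or more genes tested set these differences. Without single replicates, 9 to 13 members were called higher and 24 to 27 lower, and over all genes 4725 to 5112 higher and 4403 to 4841 lower. The Pcdhg log2 ratio of sums was -0.48, -0.43 with total counts, -0.57 with the authors' factors and -0.59 without Pcdhgc3, the last chosen after seeing the data. Leaving out single replicates gave 4.96 to 5.60 for Pcdha, -1.45 to -1.33 for Pcdhb and -0.51 to -0.45 for Pcdhg. The sign reversed for Pcdhgb1 without WT replicate 1 (-0.1064, range without single replicates -0.1064 to 0.9943), for Pcdhgb4 without K36M replicate 2 (0.0757, range -1.035 to 0.0757), for Pcdhgb2 with upper quartile scaling (0.0251), total counts (0.0342) and a mean of at least 5 CPM (0.00723), and with the authors' factors for Rest (-0.00679) and Setdb1 (-0.0236); the cause was not tested. Same-numbered replicates did not deviate together (r = 0.00263 over genes), and the labels do not pair them. With the replicate number as a block 7 members were higher and 26 lower, against 5008 and 4796 over all genes. The DESeq2 Wald test called 6 members higher and 23 lower (over all genes 4555 and 4123), and limma-voom 7 and 26 (5044 and 4855). Depth limits Pcdha, Pcdhb1, Pcdhb6 and other members under about 10 counts.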
